A study of Sus scrofa with 3 samples.

Results

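The early bell stage was compared with the stage at which enamel and dentin begin to be laid down in the last deciduous molar of Wuzhishan miniature pigs, by setting the array of embryonic day 60 (E60) against that of embryonic day 50 (E50). These are 2 of the 3 arrays of the study. The comparison takes every probe set of the array except the manufacturer's controls, 23999 of 24123, and asks of each how far its log2 signal on E60 lies from that on E50. Each stage is 1 Affymetrix Porcine Genome Array, hybridised with RNA from a single litter whose lower-jaw germs of this molar, together with their dental lamina, went into 1 pool. The E50 germs are labelled bell stage with a secondary dental lamina starting, and the methods call them early bell. The E60 germs are called late bell in the methods and secretory elsewhere in the study. The E40 pool, at the cap stage, is given only as a level beside the others. All 3 pools share the breed, no treatment sets them apart, and the labels give neither the number nor the sex of the fetuses in a pool.

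A tooth germ is built from an epithelium, the enamel organ, and the mesenchyme that it encloses. At the bell stage the cells along their border stop dividing and become ameloblasts and odontoblasts, tall polarised cells that make enamel and dentin. Such cells depend on a secretory route in which proteins enter the endoplasmic reticulum, are folded and glycosylated there, pass through the Golgi apparatus and are released, and on pumps, channels and carriers that move calcium, phosphate, protons and water. The matrix around them is assembled outside the cell, where collagens are trimmed and crosslinked and proteoglycans are bound to them.

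Dim signals were lifted to a floor, the 25th percentile of the array, which was 17.2 for E50 and 21.8 for E60. Where 1 of the signals lay under its floor the fold is a lower bound, written "at least", and a probe set or gene counts as measured where at least 1 of its signals lay above the floor. A call means a difference over 2-fold. Where 3 signals are given they are those of E40, E50 and E60 in this order, and folds and log2 differences set E60 against E50, with positive values for higher signals on E60. Of 18979 measured probe sets, 1184 were called higher on E60 than on E50 (6.24%) and 349 lower (1.84%), and in 317 and 93 of these 1 signal was under its floor. The higher ones were 77.2% of those called (95% Wilson interval 75.1% to 79.3%, for counting error only), but the split depended on the scale: it was 745 to 508 (59.5% higher) after quantile normalization and 777 to 630 (55.2%) with scaling to the median housekeeping signal. For genes, each symbol was represented by its brightest probe set. Of 6178 measured genes, 270 were called higher (4.37%) and 108 lower (1.75%), while 2839 lay above 0 and 3339 below it, with a median log2 difference of -0.04. Scaling to the median housekeeping signal moved this median to -0.22. That signal was that of ACTB on both arrays, whose log2 difference of 0.18 was the highest of the 13 housekeeping genes, while the median of their differences was -0.05. A second form, chosen with the values in view, sets this median difference to 0 and moved the median of all genes to 0.01. List medians are therefore also given as distances from that of all genes. Each list below is set beside these values. Dim genes lay higher than bright ones: in the dimmest of 4 equal groups by signal 61.4% of the genes were above 0, against 43.3%, 37.9% and 41.2% in the others. With 1 array on each side there is no spread between replicates and no p-value, and every difference is one between 2 litter pools. The only precision that the arrays themselves give is between probe sets: over 1625 genes with at least 2 probe sets that passed both floors, the SD of the log2 difference between the probe sets of a gene was 0.41. Among the 167 of these genes that had a probe set past 2-fold, all probe sets went the same way in 108 (64.7%).

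**Figure D1:**
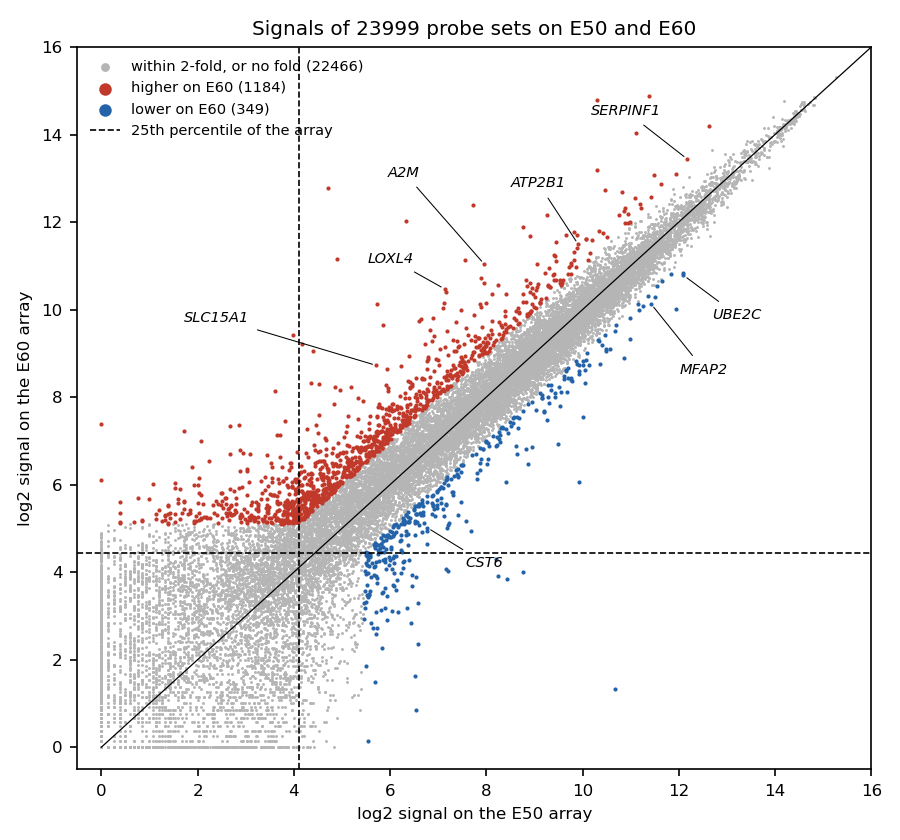
Log2 signals of 23999 probe sets on the E50 array (horizontal axis) and the E60 array (vertical axis), with 1184 called higher on E60 in red, 349 called lower in blue and the rest in grey. The dashed lines are the floors and the diagonal marks equal signals; the red points spread along the low end, while SERPINF1 (4627.1 and 11100.7) and UBE2C (4381.4 and 1761.9) lie among the bright probe sets.

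The secretory pathway list, with 169 measured genes, differed little gene by gene and lay mostly above 0. Only 4 genes were called higher and 1 lower, but 120 lay above 0 and 49 below it, against 46.0% above 0 over all genes. The median log2 difference was 0.17, which is 0.20 above that of all genes. This distance is smaller than the SD between probe sets of a gene, so it describes the list and not its single members. The majority above 0 depended on the scale of the arrays. It was 97 against 72 with the arrays at equal medians, and with scaling to the median housekeeping signal it turned to 78 against 91. With the median housekeeping difference at 0 it was 129 against 40. These 3 shift whole arrays, so the distance of 0.20 from the median of all genes could not change under them. After quantile normalization, which does not move all signals alike, the distance was 0.21. The same lean was seen among bright genes: of the 87 members in the brightest group of all genes, 63 lay above 0, where 41.2% of all genes in that group did.

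Proteins enter the endoplasmic reticulum through the SEC61 channel and its partners. Of 23 measured genes of this step 19 lay above 0, with a median of 0.20 and no call. SSR4, a subunit of the translocon-associated complex, stood at 10399.4, 12233.5 and 12344.8, and TRAM1, a membrane protein beside the channel, at 7891.2, 9262.6 and 10697.5, with 0.10 to 0.99 on its further probe sets. The 24 genes of N-glycosylation, which attach and trim sugar trees, had a median of 0.01. MAN1A1, a Golgi mannosidase that trims these trees, went from 212.0 on E40 to 176.2 on E50 and 386.0 on E60 (2.19-fold higher). ALG13, which helps to build the sugar precursor, stood at 402.3, 250.2 and 515.8 (2.06-fold higher), but its other probe set lay at -0.11. The subunits of the transferase itself that were named for their brightness, RPN1, DAD1 and OSTC, lay between -0.05 and 0.26.

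Folding and disulphide formation held 34 measured genes, of which 27 lay above 0, with a median of 0.19. SELENOM, a selenoprotein of the endoplasmic reticulum, stood at 278.3, 335.3 and 819.4 (2.44-fold higher). FKBP7, a prolyl isomerase of the same compartment, stood at 625.1, 551.9 and 1135.1 (2.06-fold higher). The chaperone gene HSPA5, which is known to be induced when unfolded protein builds up, was at 7881.5 on E50 and 8019.0 on E60, and PDIA6, a disulphide isomerase, at 7586.8 and 6541.0. The general chaperones named for their brightness thus did not share the calls of SELENOM and FKBP7. Without probe sets whose suffix marks a match shared between transcripts, 32 genes of this role were left and none was called. Among 10 genes of the unfolded protein response and of degradation from the endoplasmic reticulum, 9 lay above 0 (median 0.21). XBP1, a transcription factor of secretory cells, had the largest difference of that group, from 4171.2 to 6072.6, 1.46-fold and within the 2-fold limit.

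Export from the endoplasmic reticulum had a median of 0.27, with 21 of 27 genes above 0 and none called. TMED2 and TMED10, cargo receptors of transport vesicles, stood at 7820.0 and 4769.0 on E50 and at 10013.5 and 6091.4 on E60. SEC31A, of the outer COPII coat, went from 3737.3 to 4574.3, and its further probe sets lay between 0.19 and 0.998. The members of this step with the largest differences, chosen after their values were seen, were the cargo receptor gene SURF4 (1988.3 and 3677.0, log2 difference 0.89) and KDELR3, a receptor that returns chaperones to the endoplasmic reticulum (2370.0 and 4146.2, 0.81). Those of the Golgi apparatus and its COPI coat, 23 genes, had a median of 0.18, with 14 above 0. COPB1, a coat subunit, stood at 4036.8 and 5267.9, and ARF1, the GTPase that recruits the coat, at 11507.0 and 11301.7. At the last step, Rab proteins, SNAREs and exocytosis, the 28 genes were near the median of all genes: 16 lay above 0 and the median was 0.03. The 1 call there was STX16, a SNARE of the Golgi, with signals of 49.0, 45.3 and 21.9 (2.07-fold lower), the last just above the floor.

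**Figure D2:**
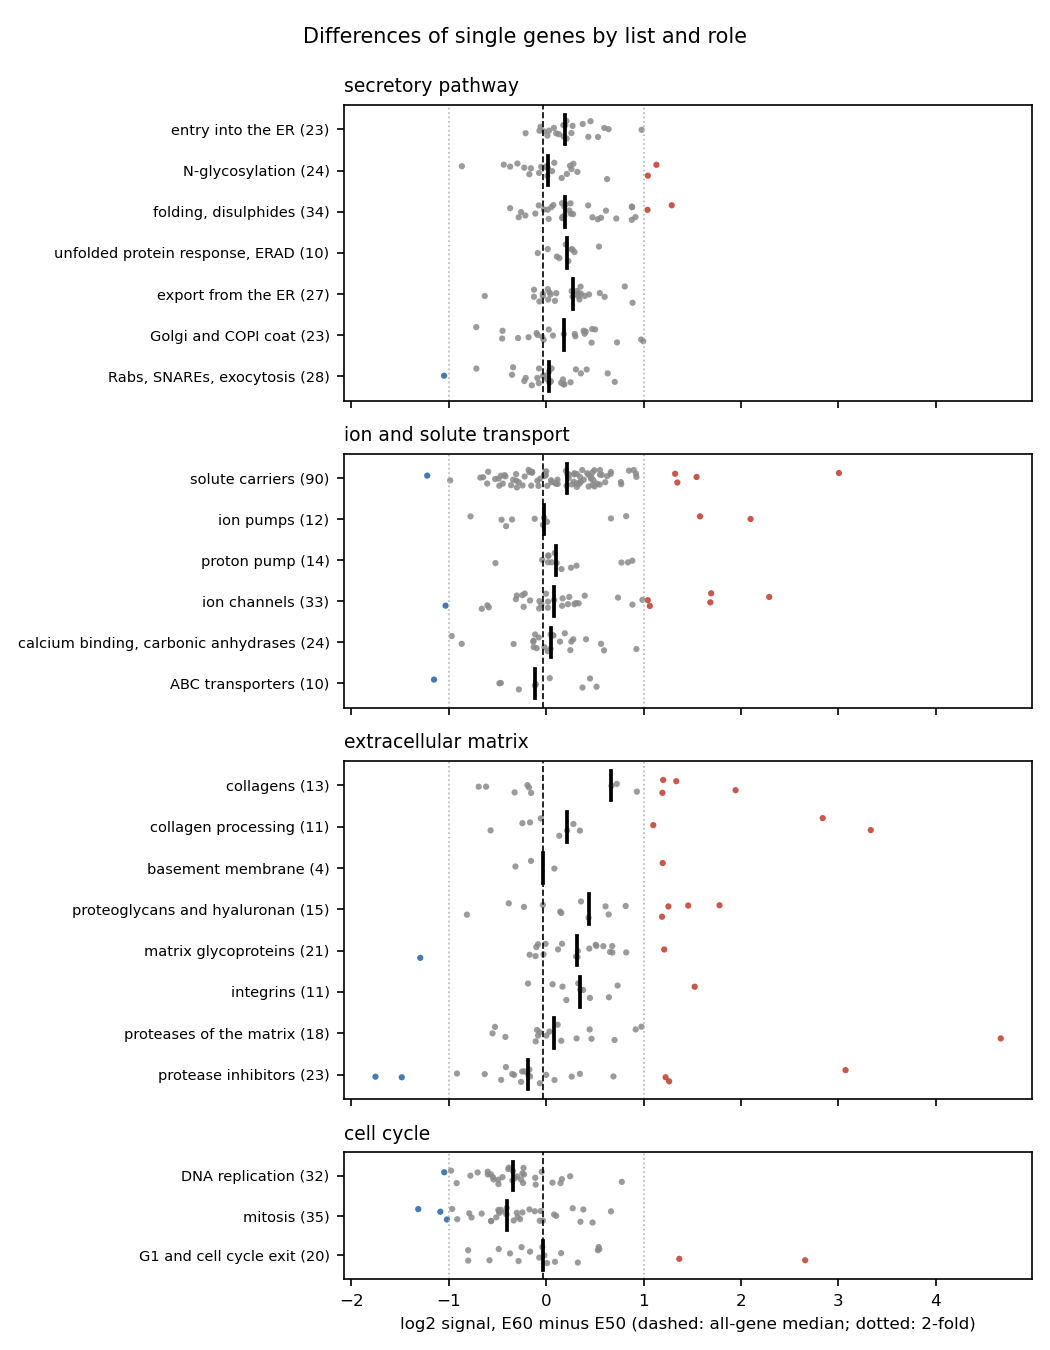
Log2 signal on E60 minus that on E50 (horizontal axis) of each measured gene, as 1 point, grouped by the roles of the 4 main lists (vertical axis, number of genes in brackets); red points were called higher, blue points lower, and black bars are medians. Most secretory roles have their medians to the right of the dashed all-gene median of -0.04, and DNA replication (-0.34) and mitosis (-0.41) have theirs to its left. The points far to the right are in the matrix and transport panels and, with KLF4 (2.66), in that of the cell cycle.

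The ion and solute transport list held 183 measured genes with a median of 0.08, which is 0.12 above that of all genes. The median was below 0 (-0.10) with scaling to the median housekeeping signal and 0.13 with the median housekeeping difference at 0. In the list 11 genes were called higher (6.01%) and 3 lower (1.64%), beside the 4.37% and 1.75% of all genes. For 6 of the 11 both signals lay above the floor. The list was dim, with a median signal of 297.9 on E50, and dim genes as a whole lay higher on E60. Of its 74 members in the dimmest group of genes 66.2% were above 0, beside 61.4% of all genes there.

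The differences at the level of single genes were large in calcium pumps and peptide carriers. ATP2B1 encodes a pump that drives calcium out across the plasma membrane, and its signal was 1121.1, 962.0 and 2876.5 (2.99-fold higher). ATP2C2, a calcium and manganese pump of the secretory route, stood at 60.8, 18.4 and 79.0 (4.29-fold higher), with an E50 signal close to the floor. Its relative ATP2C1, chosen after its values were seen, went the other way, from 3292.0 on E50 to 1920.8 on E60 (log2 difference -0.78). ATP2A2, the pump that fills the endoplasmic reticulum with calcium, was at 4429.8, 3059.9 and 3014.2, with no difference between the last 2 beyond 0.02 on its brightest probe set and values from -0.26 to 0.34 on its others. ATP1B1, the beta subunit of the sodium pump, stood at 4824.5, 4710.2 and 8324.4, 1.77-fold and within the limit, and its other probe set gave 0.95. The 12 pump genes together had a median of -0.03, so the calls of ATP2B1 and ATP2C2 were not shared by the group.

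SLC15A1, a proton-coupled carrier of small peptides best known from the gut, had the largest difference of the list, with 22.8, under the floor, 52.6 and 422.6 (8.04-fold higher). SLC15A2, its relative of kidney and other tissues, stood at 218.4, 18.2 and 53.0 (2.92-fold higher), with an E50 signal close to the floor. Its other probe sets lay at 0.78 and 1.20. SLC15A2 was thus highest on E40, whereas SLC15A1 was highest on E60. SLC2A4, the insulin-responsive glucose carrier, and SLC36A2, a carrier of small amino acids, were at least 2.50-fold and 2.54-fold higher, both from under the floor on E50. SLC29A1, a nucleoside carrier, went the other way, from 50.9 to 17.4, under the floor, at least 2.33-fold lower. SLC2A1, the glucose carrier found in most cells, was at 5786.5, 3888.5 and 2889.8, lower on each later array but within 2-fold of its neighbour. The mitochondrial carriers SLC25A3 for phosphate and SLC25A6 for ADP and ATP differed by at most 0.02 on their brightest probe sets. The 90 carriers had a median of 0.21.

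Among 33 genes of ion channels, 5 were called higher (15.2%) and 1 lower (3.03%), beside 4.37% and 1.75% of all genes. The group was dim, with a median signal of 99.7 on E50, and in the dimmest of the 4 equal groups of all genes 11% were called higher and 4.21% lower. TRPM7, a channel for magnesium and calcium that is also a kinase, stood at 946.4, 482.4 and 1551.6 (3.22-fold higher). AQP1, the water channel of blood vessels and other tissues, stood at 571.5, 507.8 and 1061.9 (2.09-fold higher) on its brightest probe set and showed -0.06 on the other. The other 3 higher ones were potassium channel genes that were under the floor on E50 and dim on E60: KCNE4 reached 84.3, KCNH2 55.8 and KCNE3 35.5. CLCN2, a chloride channel, was lower each time, at 243.8, 165.6 and 80.9 (2.05-fold lower). The vacuolar proton pump, which acidifies vesicles and, in some cells, the space outside them, had 12 of 14 subunits above 0 and no call, with a median of 0.10. Its 3 largest values, of ATP6V1D, ATP6V1C1 and ATP6V1H, lay between 0.77 and 0.88, and these were named after their values were seen. Calcium binding proteins and carbonic anhydrases, 24 genes, had a median of 0.05 and no call. ABCA4 was the 1 call among 10 ABC transporters, from 48.5 to 7.2, under the floor (at least 2.22-fold lower).

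The extracellular matrix list had more high calls than the other main lists and more than genes at large: 18 of 115 measured genes were called higher (15.7%) and 3 lower (2.61%), beside 4.37% and 1.75% of all genes. Its median, 0.15, was 0.19 above that of all genes and turned to -0.03 with scaling to the median housekeeping signal, under which 17 genes were called higher and 4 lower. With the median housekeeping difference at 0 it was 0.20, with 19 called higher and 3 lower. Some members, such as MMP20, COL1A2 and CTSK, are also markers of enamel, bone or osteoclasts. Without the genes of all marker lists 16 of 104 genes were higher and 2 lower, a choice made with the values in view.

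Enzymes that crosslink collagen were among the largest differences of the matrix list. LOXL4 and LOX are copper enzymes that oxidise lysines so that collagen and elastin chains become linked. LOXL4 stood at 417.4, 140.7 and 1418.2 (10.1-fold higher), with a difference of 1.17 on a further probe set. LOX stood at 481.7, 236.6 and 1694.1 (7.16-fold higher), but its other probe set gave 0.41, within 2-fold. Both genes had their lowest signal on E50. P4HA2, a subunit of the prolyl hydroxylase that stabilises the collagen helix, stood at 1559.4, 1897.1 and 4065.6 (2.14-fold higher, 1.44 on its other probe set). SERPINH1, the collagen chaperone HSP47, went from 4015.9 to 5105.2, 1.27-fold. The remaining members of the group were within the limit.

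Of 13 collagen genes 4 were called higher and none lower. COL5A3 (221.3, 61.3 and 154.7), COL1A2 (470.4, 205.6 and 472.7) and COL3A1 (59.9, 32.4 and 74.0) were 2.52-fold, 2.30-fold and 2.29-fold higher. These genes encode chains of fibrillar collagens, and all 3 had their lowest signal on E50. The brightest probe sets of COL5A1 and COL2A1 lay at 0.67 and 0.72, and the further probe sets of COL5A1 between 0.39 and 1.36. COL17A1, a transmembrane collagen of epithelial attachment, was at least 3.85-fold higher (54.7, 15.6 and 66.3), with 0.23 on its other probe set. Of the bright collagens, COL4A2, a chain of basement membranes, stood at 4279.5, 4849.6 and 3161.1, and COL6A3, of beaded filaments, at 5021.5, 2673.2 and 2363.8, with differences of -0.62 and -0.18. In all, 7 collagens lay above 0 and 6 below it, and the median of 0.67 moved to -0.17 with a floor at the 50th percentile, which left 8 of the genes. It was -0.15 without the genes of all marker lists (11 genes, 5 above 0 and 6 below it). The signals of COL3A1 and COL2A1 were within 4-fold of the floor.

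Proteoglycans lay above the genes at large, with 4 of 15 called higher (26.7%, beside 4.37% of all genes), none lower and a median of 0.43. A floor at the 50th percentile left 11 of them, with 1 called higher and a median of 0.36. BGN, biglycan, a small proteoglycan of mineralising tissues, stood at 2058.2, 1875.4 and 5153.5 (2.75-fold higher). SRGN, the proteoglycan of secretory granules that leukocytes and endothelium store, stood at 68.9, 65.9 and 157.4 (2.39-fold higher). PRELP, which binds basement membranes to collagen, was at 133.8, 18.4 and 41.9 (2.28-fold higher), with an E50 signal close to the floor. GPC3, a membrane-bound heparan sulphate proteoglycan, was at 74.3, 10.6 and 59.2 (at least 3.43-fold higher). Both of these were highest on E40. The bright small proteoglycans DCN and LUM and the large VCAN stood at 6894.4, 9528.1 and 6444.7 on E50 and at 9319.4, 10524.6 and 8254.9 on E60, all within the limit.

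Of 21 matrix glycoproteins 14 lay above 0, with a median of 0.32. SPARC, a calcium-binding protein of bone and dentin, stood at 20266.1, 15964.7 and 21697.6, FN1, fibronectin, at 9747.2, 6145.8 and 8740.8, and FBLN1, fibulin-1, at 4397.1, 6806.6 and 9730.0. None of these brightest probe sets passed 2-fold between E50 and E60, but a dimmer probe set of FN1 (799.0, 79.9 and 251.1) was 3.14-fold higher. MFAP2, a component of microfibrils, was the 1 gene of the group called lower, with 1641.0, 2746.3 and 1120.3 (2.45-fold). FBN1, the backbone of the same fibrils, was named after its values were seen and went from 1311.7 to 2066.5 (0.66 on the log2 scale). COMP, a cartilage and tendon protein, was 2.32-fold higher from signals near the floor (19.0 and 43.9). Integrins, the receptors that tie cells to the matrix, lay above 0 in 10 of 11 genes, with a median of 0.35. The group was dim, with a median signal of 117.6 on E60, and 61.4% of all genes in the dimmest of the 4 equal groups lay above 0. A floor at the 50th percentile left 5 integrins, 4 of them above 0, with a median of 0.35. After quantile normalization 8 of the 11 integrins lay above 0, with a median of 0.11. The call among them was ITGB3, the chain of the vitronectin receptor of osteoclasts, platelets and other cells, at 229.2, 75 and 215.9 (2.88-fold higher). ITGB1, the common beta chain, stood at 5602.6 and 7140.7. In the basement membrane NID2, nidogen-2, was 2.29-fold higher (946.2, 638.9 and 1464.1), whereas LAMC1 and LAMB1, laminin chains, lay at 0.08 and -0.16. The further probe sets of LAMC1 disagreed with its brightest and lay between 0.92 and 1.42.

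Protease inhibitors were the role of the matrix list with the most members below 0, 16 of 23 (median -0.18), and yet held 3 of its high calls. A2M, alpha-2-macroglobulin, which traps proteases of all classes, stood at 60.3, 249.0 and 2097.4 (8.42-fold higher), but its other probe sets lay at -0.51 and 0.89. SERPINF1, pigment epithelium-derived factor, which is abundant in bone and lacks inhibitory activity, stood at 3624.3, 4627.1 and 11100.7 (2.40-fold higher). WFDC1, a WAP-domain protein, stood at 1363.3, 2336.0 and 5464.2 (2.34-fold higher, 1.53 on its other probe set). These 3 genes were higher on each later array. WFDC2, a WAP protein of epithelia, went from 1061.2 and 1530.4 to 547.3 (2.80-fold lower), and CST6, the epithelial cystatin, from 1783.0 and 109.1 to 32.4 (3.37-fold lower). Of the proteases, MMP20, which cleaves enamel proteins, was the 1 call of 18 (25.4-fold higher). MMP2, a gelatinase of mesenchyme, went from 3410.6 to 4707.9, and CTSK, the collagen-degrading cathepsin of osteoclasts, from 2164.3 to 2008.5.

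**Figure D3:**
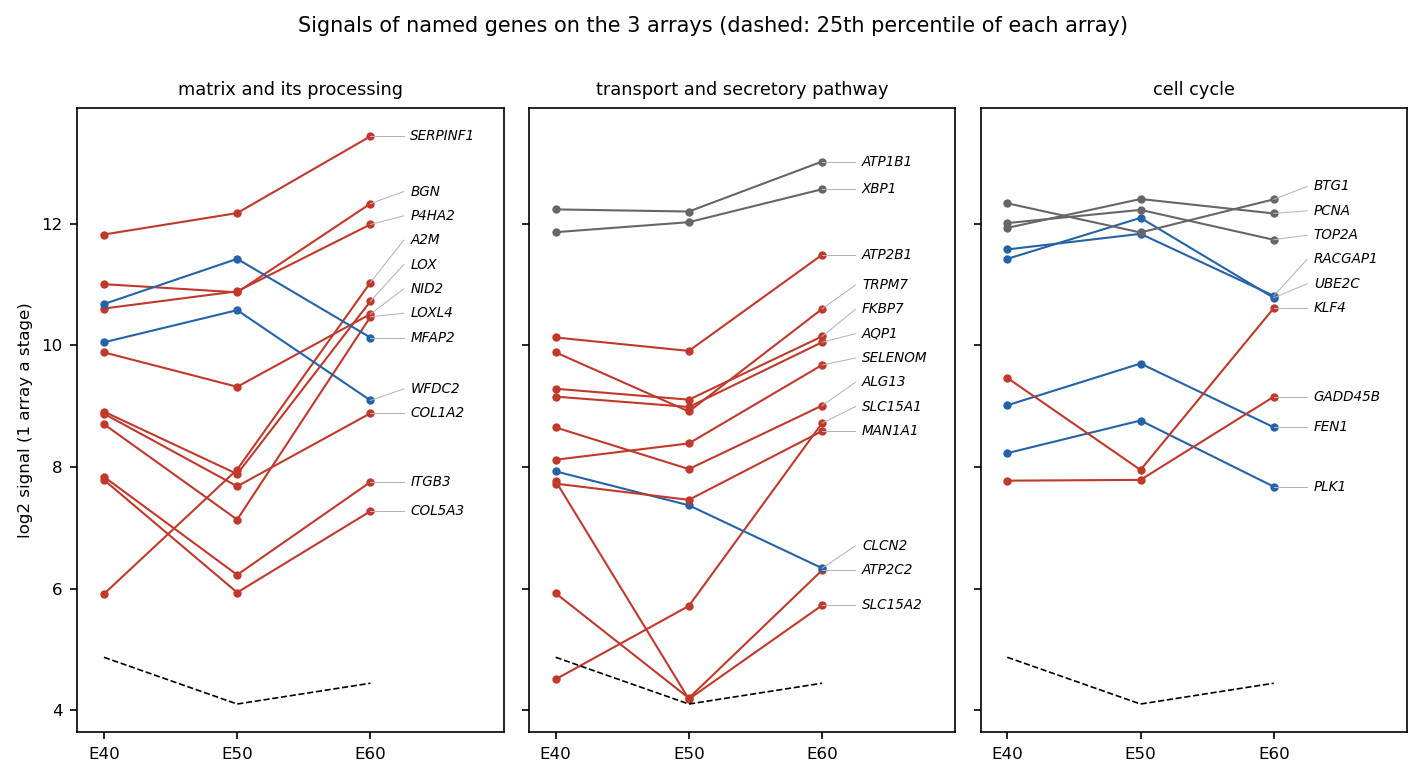
Log2 signals (vertical axis) on the E40, E50 and E60 arrays (horizontal axis, 1 array a stage) of named genes of the matrix, of transport and the secretory pathway, and of the cell cycle; red lines were called higher and blue lines lower on E60 than on E50, grey lines were not called, and the dashed line is the floor. LOXL4, LOX and ITGB3 have their lowest point on E50, SERPINF1 and A2M are higher on each later array, and UBE2C, PLK1, RACGAP1 and FEN1 have their highest point on E50.

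The cell cycle list lay lower on E60 than on E50. Of 87 measured genes 66 were below 0 and 21 above it, with a median of -0.30, which is 0.26 below that of all genes. The median stayed below 0 under every scaling tried, from -0.25 to -0.48. Few single genes passed 2-fold: 4 were called lower (4.60%) and 2 higher (2.30%), beside 1.75% and 4.37% of all genes. In the brightest group of genes 22 of its 24 members lay below 0, where 58.8% of all genes in that group did. In bulk RNA fewer cells of a kind and less RNA in each cell cannot be told apart.

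Genes of DNA replication were below 0 in 27 of 32 cases (median -0.34). FEN1, the nuclease that trims the ends of Okazaki fragments, stood at 517.6, 833.1 and 403.1 (2.07-fold lower), with -0.18 on its other probe set. PCNA, the clamp of the DNA polymerases, stood at 3908.5, 5430.9 and 4607.3, and RPA3, of the protein that coats single-stranded DNA, at 6688.2, 8778.3 and 7334.4. Both had their highest signal on E50, and neither passed 2-fold. Genes of mitosis were below 0 in 28 of 35 cases (median -0.41). UBE2C, which marks cyclins for destruction at the end of mitosis, stood at 2745.9, 4381.4 and 1761.9 (2.49-fold lower, -0.82 on its other probe set). PLK1, a kinase of mitotic entry, stood at 300.0, 435.2 and 204.8 (2.13-fold lower), and RACGAP1, of the cleavage furrow, at 3057.8, 3652.3 and 1801.4 (2.03-fold lower). TOP2A, the topoisomerase of dividing cells, went from 4799.3 to 3413.4 and CKS2, a partner of cyclin-dependent kinases, from 6116.4 to 4130.3. STMN1, which destabilises microtubules and is abundant in embryonic tissue, differed by 0.12 only, from 13448.5 to 12400.5.

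The third role, the G1 phase and leaving the cycle, did not share this lean: 11 of 20 genes were below 0 and the median was -0.03. Its calls were both high. KLF4, a transcription factor of epithelial differentiation and arrest, stood at 707.5, 247.8 and 1566.0 (6.32-fold higher). GADD45B, a stress-induced growth arrest gene, stood at 219.3, 221.2 and 570.5 (2.58-fold higher, 1.31 on its other probe set). BTG1, an antiproliferative gene, went from 3708.4 to 5411.7 (1.46-fold). CDK2, a cyclin-dependent kinase also among the brightest of the role, lay at -0.37, with -0.22 and 0.13 on its further probe sets. The inhibitors of cyclin-dependent kinases CDKN1A and CDKN1B, named after their values were seen, both lay at 0.53 to 0.54.

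**Figure D4:**
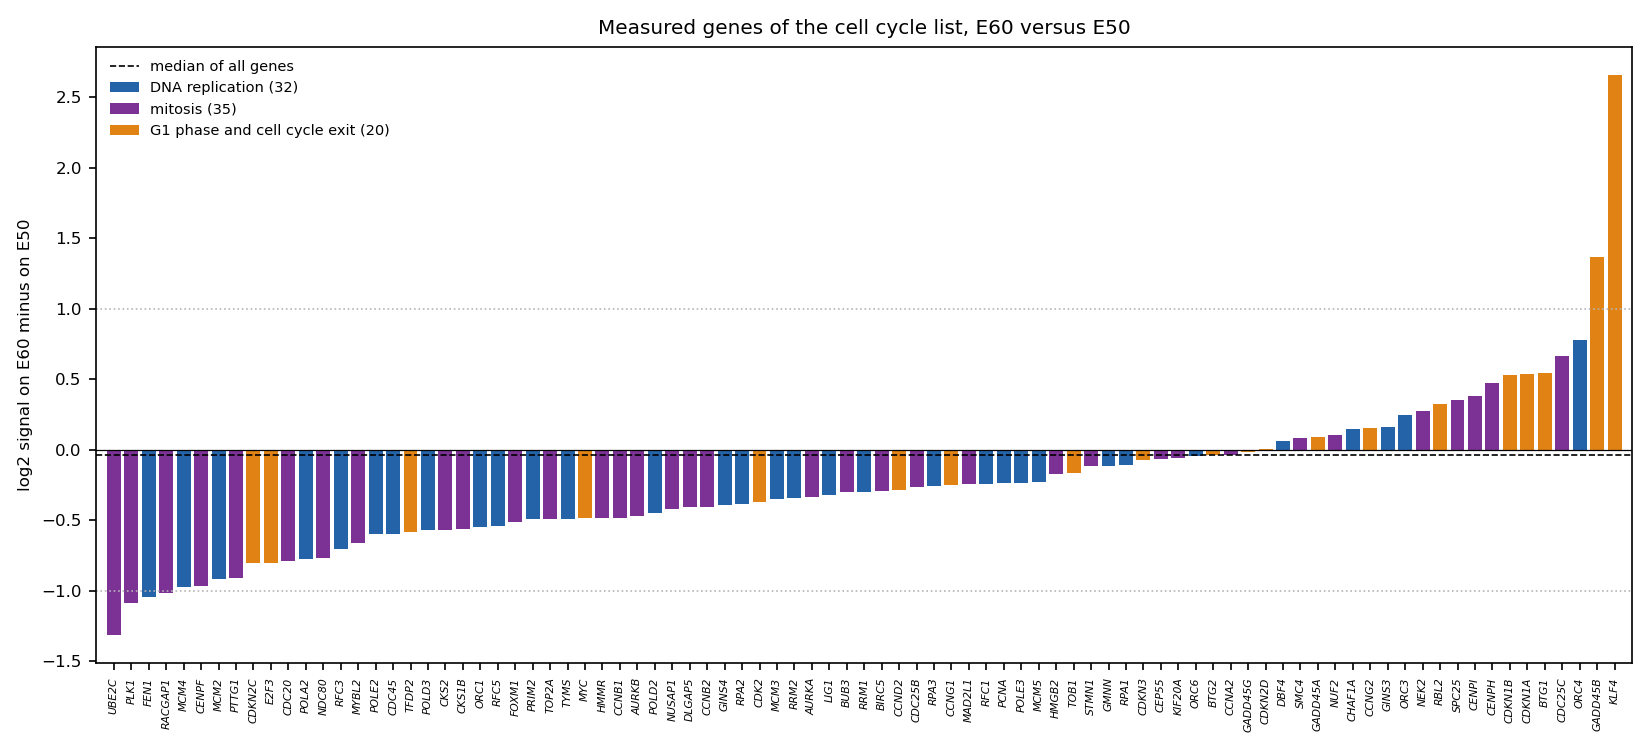
Log2 signal on E60 minus that on E50 (vertical axis, bars from 0) of the 87 measured genes of the cell cycle list (horizontal axis, sorted), coloured by role; the dashed line is the all-gene median and the dotted lines are 2-fold. Bars of replication and mitosis fill the left side down to UBE2C at -1.31, and KLF4 (2.66) and GADD45B (1.37) stand alone at the right.

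Other groups around these lists held few calls. Of 36 proteasome genes 30 lay below 0, by little (median -0.13, range -0.60 to 0.34), as did 40 of 59 genes of oxidative phosphorylation (median -0.07), which is near the -0.04 of all genes. ATP5I, a small subunit of ATP synthase, was the 1 call among the latter, at 1473.4, 689.0 and 258.1 (2.67-fold lower). The 61 cytosolic ribosome genes had a median of 0.01, with 1 call, RPL30, at 143.5, 17.7 and 85.9 on a dim probe set (4.85-fold higher). Lysosome genes had 22 of 34 above 0 (median 0.14) and 1 call, CTSS, the cathepsin of macrophages and other antigen-presenting cells, at 482.0, 257.8 and 516.3 (just over 2-fold higher). No gene of cholesterol and fatty acid synthesis was called among 21. Of the 13 housekeeping genes YWHAZ, a 14-3-3 protein, was called lower, at 1606.9, 2447.1 and 1091.6 (2.24-fold), but another of its probe sets lay at 0.04.

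Genes of iron, redox and detoxification lay mostly below 0, 27 of 41 (median -0.16), but held 2 of the largest single differences. GPX3, the secreted glutathione peroxidase, stood at 40.9, 31.3 and 286.1 (9.13-fold higher), and MT3, a metallothionein that binds zinc and copper, at 97.3, 84.6 and 487.4 (5.76-fold higher). GSTA1 was at least 2.21-fold higher from under the floor. BLVRA, which turns biliverdin into bilirubin, was the gene called lower (706.6, 827.7 and 345.4, 2.40-fold). The ferritin chains FTH1 and FTL lay at -0.11 and -0.27.

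Among genes of cell junctions and epithelium, GJA4, a gap junction protein of arterial endothelium, stood at 212.3, 66.8 and 230.1 (3.44-fold higher), and CDH17, the cadherin of the gut lining, was at least 2.51-fold higher from under the floor. KRT2, a keratin of the epidermis, was 2.03-fold higher from signals near the floor (18.5 and 37.6). OCLN, occludin of tight junctions, stood at 415.7, 314.1 and 156.9 (just over 2-fold lower), with -0.36 on another probe set. GJA1, the main gap junction protein of tooth cells, went from 10277.8 to 12571.1, and DSP, desmoplakin, from 5385.9 to 6781.6, both within the limit. CTNNB1, beta-catenin, lay at 0.40 on its brightest probe set and between -0.35 and 0.28 on the other 4.

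Signalling molecules and transcription factors of tooth development made up a list of 51 measured genes, of which 6 were called higher (11.8%) and 3 lower (5.88%), beside 4.37% and 1.75% of all genes (median 0.26). These counts depended on the processing. They were 4 and 3 with the arrays at equal medians, and 2 and 2 of 42 with a floor at the 50th percentile. Without probe sets whose suffix marks a match shared between transcripts they were 3 and 3 of 49. IGF1, a growth factor, was at least 5.91-fold higher (62.0, 10.9 and 101.8), though its other probe sets gave 0.54 and 0.17. FZD5, a receptor of Wnt ligands, was 2.35-fold higher (81.4, 62.5 and 147.1) and EGR1, an immediate early transcription factor, 2.83-fold higher (130.4, 53.1 and 150.7). SATB1, a chromatin organiser, went from 392.8 on E40 to 1982.5 on E50 and 4020.1 on E60 (2.03-fold higher), and its further probe sets lay at 0.64 to 1.04. Of the genes called lower, GLI1, a target and effector of hedgehog signals, stood at 238.8, 337.4 and 153.3 (2.20-fold), and WNT10B, a Wnt ligand of the dental epithelium, at 34.7, 80.9 and 35.6 (2.27-fold). Both were highest on E50. MEIS1, a homeobox transcription factor, was lower on each later array, at 4012.7, 1275.2 and 635.6 (2.01-fold lower, -1.17 on its other probe set).

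Marker genes of other cells were read for the same 2 arrays, with the calls above beside them. All 4 measured enamel markers were called higher, and their summed signal went from 5132.2 to 59202.2, with KLK4, of the maturation stage, under the floor on both arrays. AMBN, AMELX, ENAM and MMP20, the markers against which the label of a secreting stage was checked, stood at 29942.0, 16881.4, 6971.7 and 5407.1 on E60. Of 9 dentin and bone markers 9 lay above 0 and 4 were called higher, with a sum of 25345.1 on E50 and 42539.8 on E60, and PHEX was under the floor on both. DSPP, the precursor of the main dentin proteins besides collagen, went from 80.3 to 4194.5 (52.2-fold higher). IBSP, the bone sialoprotein gene, stood at 4046.8, 617.4 and 4584.5, and was lowest on E50. LOX, LOXL4, COL1A2, COL5A3 and ITGB3 of the matrix list were also lowest on E50, though COL5A3 and ITGB3 were highest on E40 and the others on E60. The part of bone or other tissue next to the germ in these matrix values was not tested.

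Endothelium markers were above 0 in 10 of 11 genes (median 0.38), with a sum of 2338.6 on E50 and 3418.5 on E60. TEK, the angiopoietin receptor, stood at 210.0, 81.7 and 226.6 (2.77-fold higher) and ERG, an endothelial transcription factor, at 87.5, 62.4 and 173.6 (2.78-fold higher), while KDR was under the floor on both arrays. Leukocyte markers were above 0 in 14 of 16 genes (median 0.45), with a sum of 1741.7 and 2358.3. Both groups were dim, with median signals of 136.8 (endothelium) and 60.2 (leukocyte) on E50. In the dimmest of the 4 equal groups of all genes 61.4% lay above 0. After quantile normalization the median was 0.31 for endothelium (10 of 11 above 0) and 0.15 for leukocytes (12 of 16). TYROBP, a signalling adaptor of macrophages, was at least 6.01-fold higher (100.7, 8.5 and 103.5), and PTPRC, the common leukocyte antigen, was under the floor on both arrays. GJA4, AQP1, NID2, SRGN and CTSS, called higher above, are also expressed by vessels or leukocytes, and the part of these cells in their values was not tested. Fat cell markers were above 0 in 4 of 4 genes, with a sum of 145.9 and 289.4 and FABP4 called higher (2.32-fold). Smooth muscle and pericyte markers had a median of 0.03, with RGS5, of pericytes, called higher (554.1, 698.0 and 1631.5). GAP43, of growing axons, was the 1 call among 9 Schwann cell and nerve markers (165.8, 409.5 and 977.0, 2.39-fold higher).

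Skeletal muscle markers lay on both sides of 0, with 10 of 19 measured genes above 0 and 8 of 27 under the floor on both arrays. Their summed signal still went from 1474.7 to 4316.1, of which MYL1, an essential light chain of myosin, gave 481.2 and 3266.3. It was called higher with CHRNA1, of the muscle acetylcholine receptor, at 93.0, 28.5 and 228.4 (8-fold), and DES, desmin, at 886.8, 18.4 and 45.3 (2.46-fold). The E50 signal of DES was close to the floor. TNNI2, a troponin of fast fibres, was called lower, at 1559.2, 59.2 and 28.3 (2.09-fold). Red blood cell markers were above 0 in 5 of 6 genes, and AHSP, which stabilises alpha-globin, was called higher from dim signals (28.4 and 57.3). Keratinised epithelium had 6 of 8 genes above 0 and CST6 as its 1 call, with sums of 3546.2 and 3526.6. Osteoclast markers lay at a median of -0.10, with ACP5 at 493.0 and 459.1 and no call, beside the call of ITGB3. The interferon response, 14 of 17 genes below 0 and 9 called lower, had a sum of 6140.6 on E50 and 2753.7 on E60. ISG15, MX1, IFIT1 and IFIT2 were 5.89-fold, 5.54-fold, 5.08-fold and 2.89-fold lower. No gene of the interferon list is in the 4 main lists. Of the epithelial pair, EPCAM stood at 3186.2, 6188.5 and 3655.0 and CDH1, the cadherin of epithelia, at 4285.7, 4565.9 and 4765.2, and of the mesenchymal pair MSX1 went from 737.1 to 1213.7 and BMP4 from 3160.1 to 3893.1. A dim probe set of MSX1 was at least 2.11-fold higher, from under the floor.

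**Figure D5:**
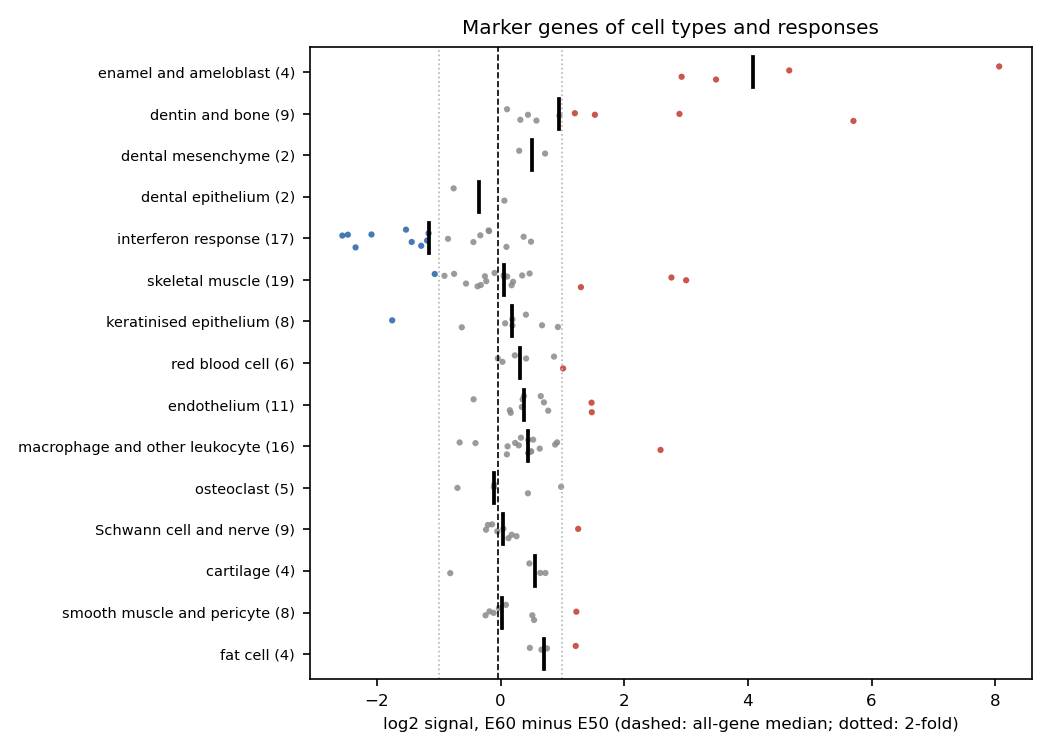
Log2 signal on E60 minus that on E50 (horizontal axis) of each measured marker gene, as 1 point, by cell type or response (vertical axis, number of genes in brackets), with calls in red and blue and medians as black bars. Enamel markers lie between 2.93 and 8.06, 9 interferon genes are called lower, and endothelium and leukocyte markers lie mostly between 0 and the 2-fold line.

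Over all probe sets that have a symbol and passed both floors, the largest differences were those of the enamel and dentin genes ENAM, DSPP, MMP20 and AMBN. Next came PRR15, which is in none of the lists, at 36.5, 29.0 and 300.5 (10.4-fold higher). CAPNS1, the small subunit of calpains, was 8.91-fold higher on one probe set (58.1, 99.2 and 883.5) and 1.27-fold on its brightest (1969.5, 2174.4 and 2771.2). FIBIN, a gene of fin and limb bud initiation, stood at 2083.9, 113.8 and 745.9 (6.56-fold higher), with a further dim probe set at -0.05. PRR15 and CAPNS1 were highest on E60, and FIBIN on E40.

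The largest difference in the other direction was that of NPY, neuropeptide Y, at 280.6, 204.7 and 30.9 (6.63-fold lower), a gene whose further probe set was at or under the floor. ACTC1, cardiac actin, stood at 11061.3, 144.5 and 32.2 (4.49-fold lower). RHBDF2, an inactive rhomboid protein (89.6, 108.5 and 25), VARS2, a mitochondrial tRNA synthetase (169.3, 149.9 and 34.7), and ZFP42, a zinc finger gene of stem cells (89.0, 83.0 and 24.5), were 4.35-fold, 4.32-fold and 3.39-fold lower, all down to signals within 2-fold of the floor. PKDCC, a secreted tyrosine kinase of skeletal development, stood at 659.7, 739.5 and 221.3 (3.34-fold lower), and ZFAND2A, a zinc finger gene induced by arsenite, at 102.6, 223.2 and 70.1 (3.19-fold lower). KIAA1958 (74.4 and 26.5) and LOC100522115 (587.8 and 202.5) were 2.81-fold and 2.90-fold lower.

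In 5 further genes a dim probe set was among the 20 largest differences in this direction while the brightest one was within 2-fold. TMEM40 showed -1.84 on the dim and -0.23 on the brightest probe set. TUBGCP2, of the gamma-tubulin complex, showed -1.79 and -0.26, and PLRG1, of the spliceosome, -1.55 and -0.13. UPK3BL2 showed -1.65 and -0.29. TCIRG1, a subunit of the proton pump of osteoclasts, showed -1.52 and 0.19.

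Many of the called probe sets carry no name. Of the 1184 higher ones 421 have 1 symbol, 11 several and 752 none, and of the 349 lower ones 171, 3 and 175. Among those without a symbol, one went from 21.0 on E50 to 529.5 on E60 (25.2-fold higher) and another from 976.7 to 66.2 (14.8-fold lower), a larger difference than that of any named probe set in that direction with both signals above the floor.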

How the data were processed

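RNA of litter pools of tooth germs was labelled with a 3' in vitro transcription kit and measured on 1 Affymetrix Porcine Genome Array a stage. The authors computed MAS5 signals, scaled the arrays and deposited log2 values, which were used as deposited. The mean signal without the outer 2% was 500.1 on every array. The authors' detection calls and their test between stages were not used here. All probe sets but 124 controls were used, with the floor and the 2-fold call given above. Where a raised signal passed the other array's, no fold is given, though list medians and counts around 0 hold the value. Symbols came from the platform table: 10069 probe sets had 1 symbol, 198 several and 13732 none, and 9961 of the first were matched by gene ID to a reference gene table. The brightest probe set of a gene is the one whose log2 signals have the highest mean over the 3 arrays.

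The 28 gene lists name 1088 genes on the array, of which 990 were measured. The comparison, its members and the lists were chosen with earlier results of these data known. Named were, in each role, the genes called with both signals above the floor (at most 4 a direction) and the 3 brightest, and the 20 largest differences in each direction. Others named are called genes with 1 signal under the floor, though not all of them, and genes said to be chosen after their values were seen. Brightest members within 2-fold are not all printed. Alternatives changed the floor, the scaling, the threshold and the probe sets used, and 2 were added with the values in view. The calling step was tested on simulated data. Python 3.11.15, numpy 2.4.6, pandas 2.3.3, scipy 1.17.1 and matplotlib 3.10.9 were used.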

Additional observations from a re-analysis of the deposited data

How the results depend on the processing

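No floor gave 3245 probe sets higher on E60 than on E50 and 1664 lower (66.1% higher), and a floor at the 50th percentile 330 and 104. A common floor gave a higher share of 73.9%, equal medians 68.9%, and a housekeeping difference of 0, added with the values in view, 81.6%. Quantile normalization gave 745 higher ones (59.5%), and scaling to the median housekeeping signal 777 and 630 lower (55.2%). Over 3-fold there were 306 and 71 (81.2%), among probe sets with 1 symbol 421 and 171 (71.1%), and with 1 probe set a symbol 270 and 108 (71.4%). The higher share stayed over 50% under each of these. With scaling to the median housekeeping signal the list medians turned to -0.0159 (secretory pathway), -0.101 (transport) and -0.0281 (matrix). These 3 were above 0 and the cell cycle median below 0 under every other alternative, and the cell cycle median was below 0 there too. Of the values of called named genes under the changed floors and scalings 564 moved by less than 1.5-fold and none changed sign. Another 21 moved by more, all under the floor at the 50th percentile. Of the medians of the other lists and roles 499 moved by less and 6 by more. Those of the collagens moved to -0.17 with that floor and to -0.15 without the genes of all marker lists. Under the same alternatives the median of the tooth transcription factors moved from 0.47 to -0.35 and to -0.17. That of the skeletal muscle markers moved from 0.05 to 0.87 with that floor, and that of the enamel markers from 4.08 to 3.48 with no floor. For the named genes the probe set was not exchanged in these counts. As given above for A2M, ALG13 and AQP1, a further probe set can have the other sign. No paired analysis was possible because each stage has 1 array, and no array could be left out. Dim signals limit what can be seen: 5020 probe sets lay under the floor on both arrays. Differences between litters, dissections and stages cannot be told apart.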

Other observations

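The genes named here were chosen after their values were seen, and 3 signals in a row are those of E40, E50 and E60. PAPSS2, which makes the sulphate donor used on proteoglycans, stood at 904.5, 695.6 and 2227.4 (3.20-fold higher). GFPT1, the first enzyme of the route to amino sugars, stood at 155.5, 181.5 and 446.8 (2.46-fold higher), with a further probe set near the floor at 0.26. Both supply the building of sugar chains and belong to none of the lists. BAMBI, a decoy receptor that dampens TGF-beta and BMP signals, stood at 719.9, 3921.5 and 8816.8 (2.25-fold higher, 1.52 on its other probe set), and PMEPA1, which also dampens TGF-beta signals, at 2081.7, 1105.2 and 2261.7 (2.05-fold higher). The other 4 probe sets of PMEPA1 lay between 0.11 and 0.99. They stand beside TGFB1 itself, at 596.1 on E50 and 1826.5 on E60.

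Creatine kinases buffer ATP where it is used fast. The brain form CKB stood at 817.8, 214.7 and 935.8 (4.36-fold higher) and the mitochondrial form CKMT1A at 42.0, 898.6 and 3476.1 (3.87-fold higher). Of 59 genes of oxidative phosphorylation 40 lay below 0 (median -0.07), beside 54% of all genes (median -0.04). Among genes of secreted proteins, CLU, clusterin, an extracellular chaperone, stood at 1522.6, 1977.9 and 4675.2 (2.36-fold higher), and PTGDS, a prostaglandin synthase and lipid carrier, at 618.5, 826.9 and 1787.1 (2.16-fold higher). ACPT, a phosphatase in which changes are known to cause thin enamel, was under the floor on E40 and E50 and at 688.1 on E60 (at least 39.9-fold higher). TMEM45A, a membrane protein of keratinising epithelium, stood at 786.5, 534.5 and 2104.2 (3.94-fold higher).

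Lower on E60 were CXCL12, a chemokine of mesenchyme, at 910.9, 870.2 and 347.7 (2.50-fold lower, -0.95 on its other probe set), CRABP2, which carries retinoic acid to its receptor, at 1304.0, 2992.9 and 1492.7 (just over 2-fold lower), and TRH, the thyrotropin-releasing hormone gene, at 59.5, 943.2 and 435.1 (2.17-fold lower). CRABP2 and TRH were highest on E50.

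The probe set named EIF1AY, a gene that lies on the Y chromosome, stood at 534.2, 452.2 and 1643.2 (3.63-fold higher). Those of EIF1AX, its partner on the X chromosome, stood at 2397.6, 3556.6 and 3133.9 and at 1862.7, 2387.6 and 2124.4, and SRY was under the floor on all 3 arrays. Whether the pools differed in the share of males was not tested.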
